A study of Arabidopsis thaliana with 6 samples.

Results

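Transcript levels of 10 Arabidopsis genes for proline-rich, lipid-transfer-like proteins with an eight-cysteine domain were compared between *fbp7-3* mutant and wild type seedlings. The genes were chosen by locus, and each had 1 probe set on the ATH1 array that the platform's annotation pairs with that locus alone. These 10 genes stand among 13286 genes with such a probe set. They were put together with values of this comparison already known, so their differences between the groups are given as a description and carry no test.

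All samples were whole light-grown seedlings, 5 days old, of the Nossen accession (No-0). The mutant group, *fbp7-3*, carries a mutation in *AtFBP7*, a gene for an F-box protein, and the other group is its wild type. Each group had 3 samples with 1 array each, so 6 arrays were compared, and the mutant is a single line whose kind of mutation is not given in the sources used here. The labels say that samples were lysed separately, not that plants were grown separately, so the spread given here may be partly technical.

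Proteins with the eight-cysteine domain are small and secreted, and disulfide bridges between the cysteines hold the fold together. In lipid-transfer proteins this fold encloses a hydrophobic cavity that binds lipids. In the hybrid proline-rich proteins a stretch rich in proline lies between the signal peptide and the domain, and several of these proteins are found at the cell wall. *AZI1* and *EARLI1*, which come just before AT4G12490 along chromosome 4 (RefSeq annotation of TAIR10.1), are the best known of them in Arabidopsis. *AZI1* is named for its induction by azelaic acid and takes part in the priming of systemic defence, and *EARLI1* is named for its early response to aluminium. No probe set is paired with either in the annotation used, so they are not analysed here. The family of the 10 genes was taken from general knowledge, and no protein or promoter sequence was used to check it.

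The values are MAS5 signals on a linear scale, scaled by the authors so that each array has the same trimmed mean of 500.0. Array medians lay between 188.7 and 200.7 and lower quartiles between 39.2 and 49.7. Signals of different probe sets cannot be set against each other as levels of transcript, so each gene is compared only with itself. No probe set was paired with *AtFBP7*, so the mutated gene does not serve as a check of the labels here. Differences below are on the log2(signal + 16) scale, mutant minus wild type, with SEs from a limma fit over 17059 probe sets bright enough to be tested. With 3 arrays per group, precision is limited throughout. Of 6 ratios of 3′ to 5′ control signals, which measure RNA quality and labelling, 3 were higher on every mutant array than on every wild type array. The mean log2 ratio was 1.07, 1.10 and 1.33 in mutant replicates 1, 2 and 3, against 1.00, 0.88 and 0.99 in wild type replicates 1, 2 and 3 (two-sided exact permutation p = 0.1, the smallest possible with 3 against 3). This mean is called the RNA quality index below, and a higher value goes with poorer RNA or labelling. It was higher on every mutant array than on every wild type array, so it is confounded with genotype. Effects of RNA quality and of genotype cannot be fully told apart here, with or without the index as a covariate.

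AT4G12490 and AT4G12500, neighbours on chromosome 4, had the greatest differences of the 10 genes. AT4G12490 had signals of 888.5, 966.8 and 583.2 in the mutant, against 118.1, 100.1 and 166.0 in the wild type. Every mutant array lay well above every wild type array, with the lowest mutant signal in replicate 3. The means were 813 ± 203 in the mutant, against 128 ± 34.1 in the wild type (SD, n = 3 each), a ratio of 6.35, and the log2 difference was 2.52 ± 0.20 (SE). AT4G12500 had signals of 538.4, 492.8 and 308.4 in the mutant, against 107.6, 79.0 and 52.0 in the wild type. Here too the groups were far apart and mutant replicate 3 was the lowest of its group. Its means were 447 ± 122 in the mutant, against 79.5 ± 27.8 in the wild type, a ratio of 5.61, and its log2 difference was 2.28 ± 0.24. Wild type replicate 3, the highest wild type array for AT4G12490, was the lowest for AT4G12500, so the pair did not follow each other within the wild type. The relative spread was wide for both genes, at 24.9% of the mean in the mutant against 26.6% in the wild type for AT4G12490, and 27.3% in the mutant, against 35.0% in the wild type for AT4G12500. The differences ranked 4 and 5 from the top among the 17059 tested probe sets. Mutant replicate 3, where both genes were lowest in their group, had the highest RNA quality index, the direction of poorer RNA or labelling. With that index as a covariate the differences were 2.83 ± 0.30 and 2.79 ± 0.34. The gene models of the pair are separated by 1 other model, AT4G12495, which overlaps AT4G12490 and has no probe set of its own here. Signal from overlapping or closely similar transcripts was not separated.

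**Figure D1:**
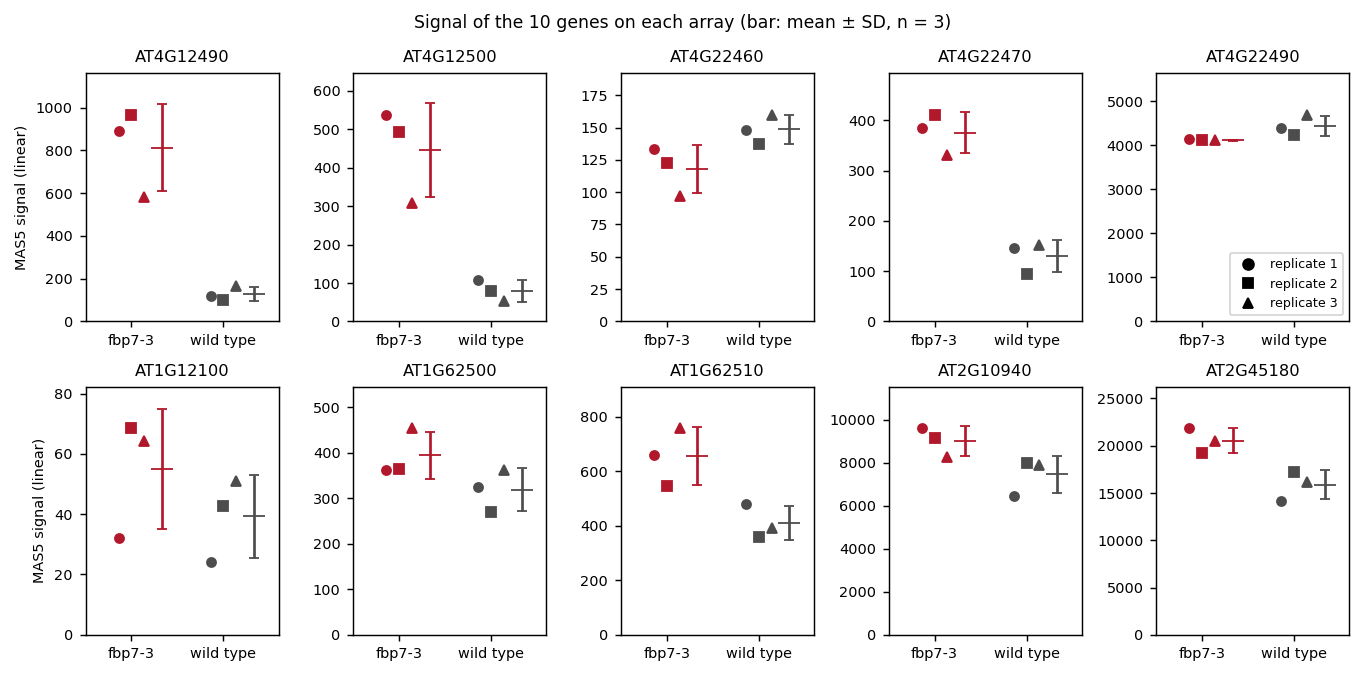
MAS5 signal (linear axis from 0) of each of the 10 genes on the 3 *fbp7-3* and the 3 wild type arrays. Symbols mark the replicate number and bars the mean ± SD (n = 3). The mutant signals of AT4G12490 lie between 583.2 and 966.8, and those of the wild type between 100.1 and 166.0.

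A second row of family genes on chromosome 4 holds AT4G22460, AT4G22470 and AT4G22490, and these did not differ alike. AT4G22470 had signals of 385.1, 411.1 and 330.2 in the mutant, against 146.5, 94.1 and 151.8 in the wild type. The groups were clearly apart, with the lowest signal of each group in a different replicate number. Its means were 375 ± 41.3 in the mutant, against 131 ± 31.9 in the wild type, a ratio of 2.87, with a log2 difference of 1.43 ± 0.19. AT4G22460, the locus before it, had 133.1, 122.8 and 97.4 in the mutant, against 148.4, 137.4 and 160.0 in the wild type. Each mutant array was below each wild type array, though 122.8 and 133.1 in the mutant came close to 137.4 in the wild type, and the log2 difference was −0.31 ± 0.20. AT4G22490, the locus after it, had 4134.4, 4111.1 and 4112.5 in the mutant, against 4389.3, 4237.5 and 4698.5 in the wild type. The mutant arrays were again all lower, by a small amount, with a log2 difference of −0.11 ± 0.09. Its mutant signals had an SD of 0.317% of their mean, and its wild type signals an SD of 5.29% of theirs. With the RNA quality index as a covariate the difference of AT4G22470 was 1.42 ± 0.30. With the same covariate AT4G22460 was at −0.11 ± 0.31, nearer to 0 than without it, and AT4G22490 at −0.13 ± 0.14. Between the 3 genes lie models with no probe set of their own here, and AT4G22460 and AT4G22470 are each overlapped by 1 such model, AT4G22463 and AT4G22467.

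The neighbouring pair on chromosome 1, AT1G62500 and AT1G62510, was also higher on average in the mutant, by less. The promoter of AT1G62500 is used as a marker of root cortex cells. AT1G62510 had signals of 660.0, 547.7 and 759.5 in the mutant, against 481.5, 360.7 and 391.2 in the wild type. The groups did not overlap, and the highest signal was in mutant replicate 3. The means were 656 ± 106 in the mutant, against 411 ± 62.8 in the wild type, a ratio of 1.59, with a log2 difference of 0.65 ± 0.15. AT1G62500 had 362.8, 364.4 and 454.2 in the mutant, against 323.4, 269.4 and 362.8 in the wild type. Mutant replicate 1 and wild type replicate 3 had the same signal, so the groups touched. The log2 difference of AT1G62500 was 0.29 ± 0.15. Mutant replicate 3, the highest array for both genes, had the highest RNA quality index, the direction of poorer RNA or labelling. With the index as a covariate the differences were 0.35 ± 0.21 for AT1G62510 and −0.03 ± 0.21 for AT1G62500. AT1G62510 is overlapped by 1 gene model, AT1G62515, with no probe set of its own here.

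AT2G10940 and AT2G45180, on chromosome 2, were bright on all arrays and slightly higher in the mutant. AT2G45180 had signals of 21888.0, 19230.9 and 20479.6 in the mutant, against 14196.0, 17252.8 and 16128.7 in the wild type. The groups did not overlap, and the lowest array was wild type replicate 1. The log2 difference was 0.37 ± 0.10, and the SD was 6.47% of the mean in the mutant, against 9.75% in the wild type. AT2G10940 had 9621.3, 9162.4 and 8268.3 in the mutant, against 6449.7, 8009.6 and 7915.9 in the wild type. Here the highest wild type array came close to the lowest mutant array, and wild type replicate 1 was again the lowest. The log2 difference was 0.28 ± 0.10. The 6 centred values of these 2 genes were the closest of any pair among the 10, with a root mean square distance of 0.091 on the log2 scale. Such a distance is small for any 2 genes that vary little over the arrays. AT4G22460 and AT4G22490 came next, at 0.154. With the RNA quality index as a covariate the differences were 0.46 ± 0.17 for AT2G45180 and 0.47 ± 0.16 for AT2G10940. AT1G12100, on chromosome 1, was dim, with 32.1, 68.6 and 64.1 in the mutant, against 24.1, 42.7 and 51.0 in the wild type. Its groups overlapped, and the log2 difference was 0.35 ± 0.36. Its lowest signals lay under the lower quartile of the arrays, where the MAS5 signal is noisy.

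Markers of tissue make-up were thinly covered, and in whole seedlings fewer cells of a type and less RNA per cell cannot be told apart. Of 19 listed genes of green shoot tissue 2 were measured, *LHCB4.1* and *LHCB4.2*, which encode light-harvesting proteins. Their summed signal ran from 28014.6 to 35598.4 in the mutant and from 24993.4 to 27287.7 in the wild type, and neither passed the limma test. Most of the sum is the signal of *LHCB4.1*, whose groups did not overlap, while those of *LHCB4.2* did. Both genes lay above 0, at 0.24 ± 0.10 (limma adjusted p = 0.345) and 0.32 ± 0.12 (limma adjusted p = 0.285). Of 14 listed root hair genes 4 were measured. Their summed signal ran from 426.6 to 564.4 in the mutant and from 495.9 to 925.3 in the wild type, and none passed. The peroxidase gene AT3G49960 was at −0.75 ± 0.25 (limma adjusted p = 0.218) and *GH9C1*, which encodes an endoglucanase, at −0.48 ± 0.28 (0.555). Of 14 genes listed for seed and embryo tissue 1 was measured, the isocitrate lyase gene *ICL*. It had signals of 51.1 to 161.2 in the mutant and 88.5 to 404.8 in the wild type, at −1.05 ± 0.42 (limma adjusted p = 0.325). In whole seedlings the signal of *ICL* need not come from seed or embryo tissue. No measured marker was listed at 0. The part of tissue make-up in the differences of the 10 genes was not tested.

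All 10 genes passed the filter on dim probe sets. Of the 10, 8 had a log2 difference above 0 and 2 below 0, with a median of 0.36, beside a median of −0.001 over all 17059 tested probe sets. The groups did not overlap for 8 of the 10 genes, 6 higher and 2 lower, where 17% of the tested probe sets did not overlap (8.45% higher and 8.56% lower). Nothing is read from these counts, since the genes were chosen on this contrast.

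**Figure D2:**
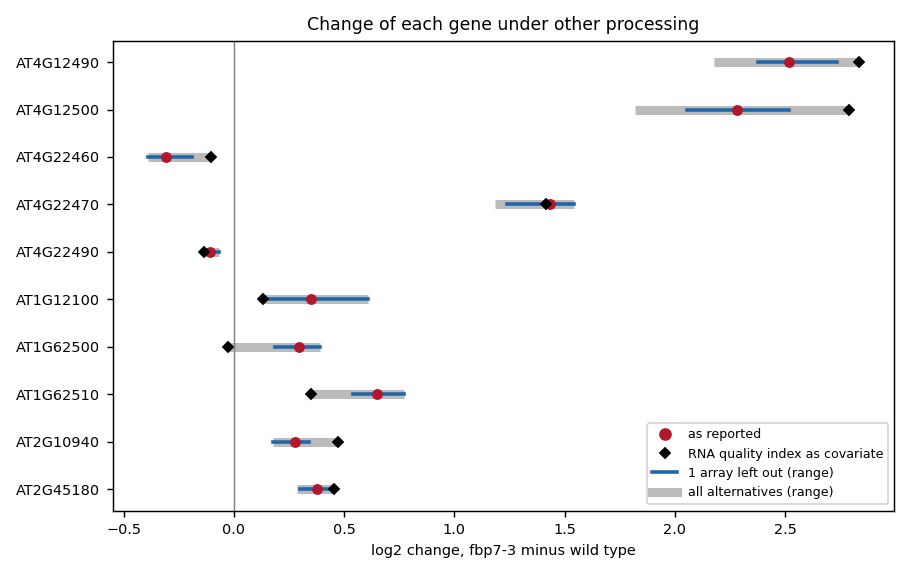
log2 difference (*fbp7-3* minus wild type) of each gene as reported (circles), with the RNA quality index as a covariate (diamonds), and its range when 1 array is left out (thin lines) and over all alternatives (thick grey lines). AT4G12490 stays between 2.18 and 2.83, AT4G12500 between 1.82 and 2.79 and AT4G22470 between 1.18 and 1.54, and AT1G62500 runs from −0.03 to 0.39.

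The arrays did not order the 10 genes in one way. Within the mutant, replicate 1 was the highest array for 5 genes, replicate 2 for 3 and replicate 3 for 2, and replicate 3 was the lowest for 5. Within the wild type, replicate 3 was the highest for 6 genes and replicate 2 the lowest for 6.

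The genes whose 6 values most resembled those of AT4G12490 were sought among 9402 other tested probe sets with 1 gene. The measure was the root mean square distance between log2 values centred on their 6-array mean. AT4G12500 was the closest, at 0.43. *GAT1_2.1*, a glutamine amidotransferase gene, followed at 0.51, then AT2G43620, of the chitinase family, at 0.52 and the peroxidase gene AT5G64120 at 0.56. AT4G22470 came next, at 0.57. *GAT1_2.1* had signals of 160.6, 139.2 and 175.0 in the mutant, against 45.8, 18.5 and 43.8 in the wild type. AT2G43620 had 2650.9, 2668.5 and 2079.2 in the mutant, against 970.5, 655.0 and 899.7 in the wild type. AT5G64120 had 2686.0, 2431.6 and 1815.7 in the mutant, against 947.4, 689.6 and 717.8 in the wild type. In all 3 genes the groups were apart, and AT2G43620 and AT5G64120 shared with AT4G12490 the lowest mutant signal in replicate 3. The other genes of the 10 were farther off: AT1G62510 stood at place 137 of 9402, AT2G45180 at 452 and AT4G22460 at 8009. This distance holds the difference between the groups, on which the genes were chosen.

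**Figure D3:**
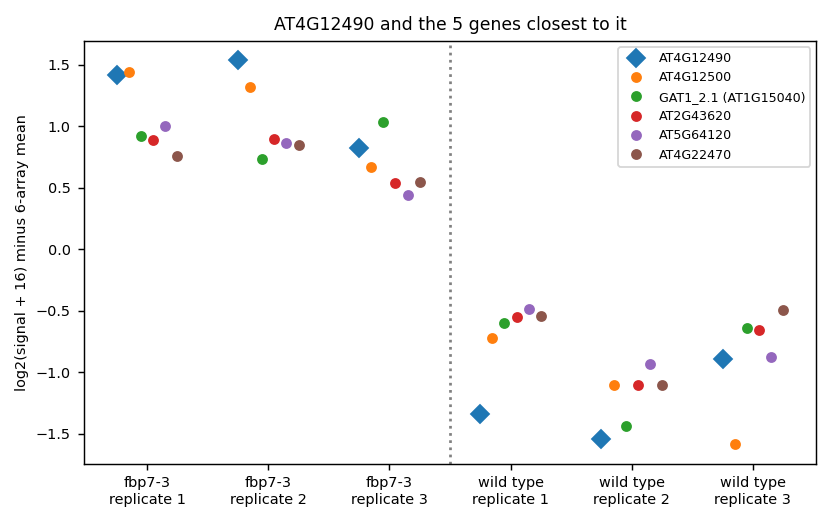
log2(signal + 16) of AT4G12490 (diamonds) and of the 5 genes closest to it (circles) on each array, minus the gene's mean over the 6 arrays. All 6 genes lie above 0 on the 3 *fbp7-3* arrays and below 0 on the 3 wild type arrays.

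Whether other eight-cysteine genes differed was asked of 91 further loci of the family, 32 of which had a probe set of their own and 17 of which were bright enough to be tested. Of these 17, 1 rose and 1 fell, both of the lipid-transfer group, and 15 did not pass an adjusted p of 0.05 in limma. Of all tested probe sets 1.06% passed, 0.522% higher and 0.533% lower. AT5G55450 rose, with signals of 600.4, 709.4 and 652.3 in the mutant, against 419.1, 291.1 and 476.3 in the wild type. Its log2 change was 0.73 ± 0.16 (limma adjusted p = 0.0425). AT5G05960 fell, with 1694.1, 1457.0 and 1423.6 in the mutant, against 2085.1, 2183.8 and 1992.1 in the wild type. Its log2 change was −0.45 ± 0.10 (limma adjusted p = 0.0427). The groups were apart for both genes, but neither call was firm. Over the 6 fits with 1 array left out, AT5G55450 passed in 2, with adjusted p values of up to 0.178, and AT5G05960 in 1, with up to 0.205. AT5G55450 passed without mutant replicate 1 and without wild type replicate 3, and AT5G05960 passed without mutant replicate 1. With the RNA quality index as a covariate neither passed, at 0.52 ± 0.24 for AT5G55450 (limma adjusted p = 0.815) and −0.31 ± 0.15 for AT5G05960 (limma adjusted p = 0.843). Over all 17 alternatives, those 6 included, AT5G55450 did not pass in 8 and AT5G05960 in 11. An unadjusted p under 0.05 was found for 8 of the 17 genes, where 11.8% of all tested probe sets had one, and 7 of the 8 were among the 10 tested genes of the lipid-transfer group. Of the 17 genes 14 had a change below 0 and 3 above, with a median of −0.26, beside −0.001 over all tested probe sets. No enrichment is read from these counts, since the gene lists were chosen with earlier results of these data known.

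The closest relatives with a value, the hybrid proline-rich genes, held 1 tested gene, AT4G22610. It is the fifth measured locus after AT4G22490 on chromosome 4. AT4G22610 had 161.2, 174.4 and 218.5 in the mutant, against 392.2, 297.8 and 250.5 in the wild type. Its groups did not overlap, at −0.70 ± 0.18, and it did not pass (limma adjusted p = 0.0975). Another 3 probe sets each measure 2 family genes together, were looked at after the data were seen, and did not pass. The one shared by AT4G12510 and AT4G12520, the next family genes after AT4G12500, had 2568.2, 1585.4 and 1882.2 in the mutant, against 2085.0, 3312.0 and 2174.4 in the wild type. Its groups overlapped, at −0.32 ± 0.18 (limma adjusted p = 0.511). The one shared by AT5G46890 and AT5G46900 was at −0.41 ± 0.20 (0.445) and that of AT4G15160 and AT4G15165 at −0.52 ± 0.20 (0.301). Of 6 tested genes for the form anchored in the membrane by a lipid, none passed and none had an unadjusted p under 0.05. The 2 with the smallest p were AT3G22620 at −0.29 ± 0.14 (limma adjusted p = 0.454) and AT2G44300 at −0.22 ± 0.12 (0.515). Of the 6, 4 lay below 0 and 2 above, with the largest change for AT5G09370 at 0.67 ± 0.39 (limma adjusted p = 0.537).

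**Figure D4:**
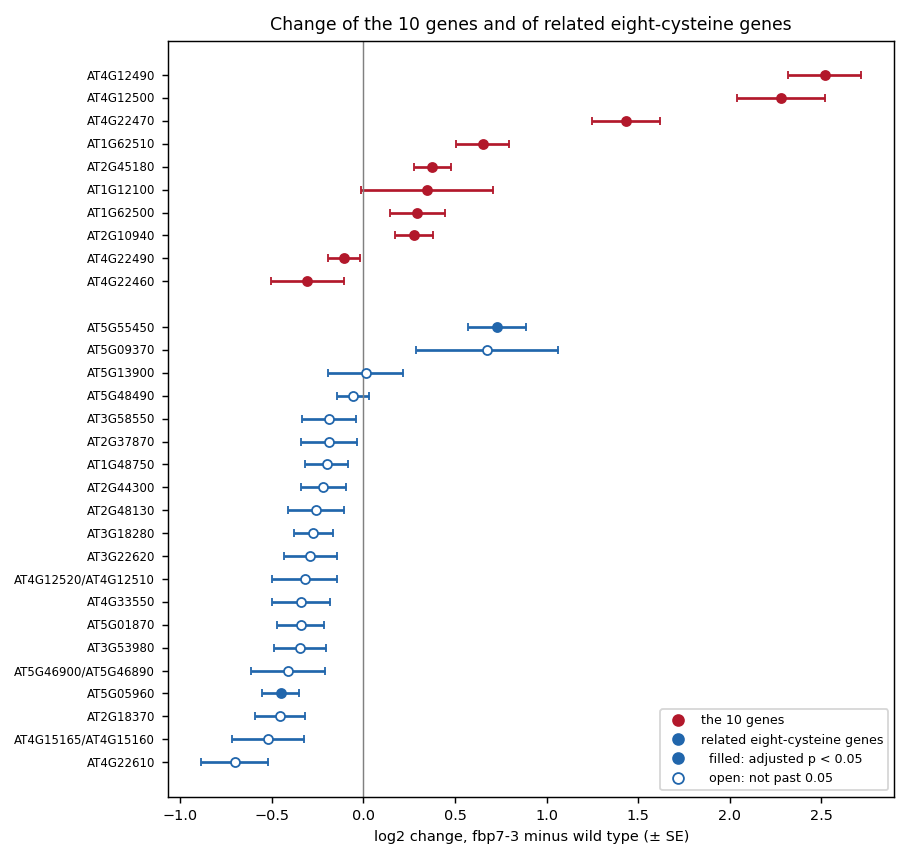
log2 change (*fbp7-3* minus wild type, ± SE) of the 10 genes (upper block) and of the related genes and shared probe sets that were tested (lower block, filled where the adjusted p is under 0.05). The 10 genes run from 2.52 for AT4G12490 to −0.31 for AT4G22460, and the related genes from 0.73 for AT5G55450 to −0.70 for AT4G22610.

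The loci beside the 10 genes were compared to see whether differences extended along the chromosome. The 5 measured loci on each side of each row of family genes gave 60 loci, of which 36 were tested. None passed in limma, where 1.06% of all tested probe sets did, so a count of 0 among 36 loci cannot answer this. Of the 36, 7 had an unadjusted p under 0.05, where 11.8% of all tested probe sets did. Their median was −0.03. Beside AT4G12490 and AT4G12500, 7 tested loci ran from −0.53 to 0.31. The nearest measured locus before them, *SKU5*, which encodes a cell wall protein of directed root growth, was at 0.19 ± 0.10 (limma adjusted p = 0.517). *SKU5* had means of 4490 ± 321 in the mutant, against 3958 ± 471 in the wild type (SD, n = 3 each). The nearest measured locus after the pair, AT4G12530, is listed with the hybrid proline-rich genes and was too dim to be tested. It had 2.0, 1.5 and 6.4 in the mutant, against 24.0, 18.8 and 8.9 in the wild type. These signals all lay under the lower quartile of the arrays. Around AT4G22470 the tested loci ran from −0.70 to 0.31. Beside AT1G62500 and AT1G62510 they ran from −0.96 to 0.13. AT1G62520, the next measured locus after AT1G62510, had means of 67.2 ± 12.1 in the mutant, against 145 ± 18.8 in the wild type (SD, n = 3 each). Its change was −0.96 ± 0.23, the largest among the 36, and did not pass (limma adjusted p = 0.0636).

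**Figure D5:**
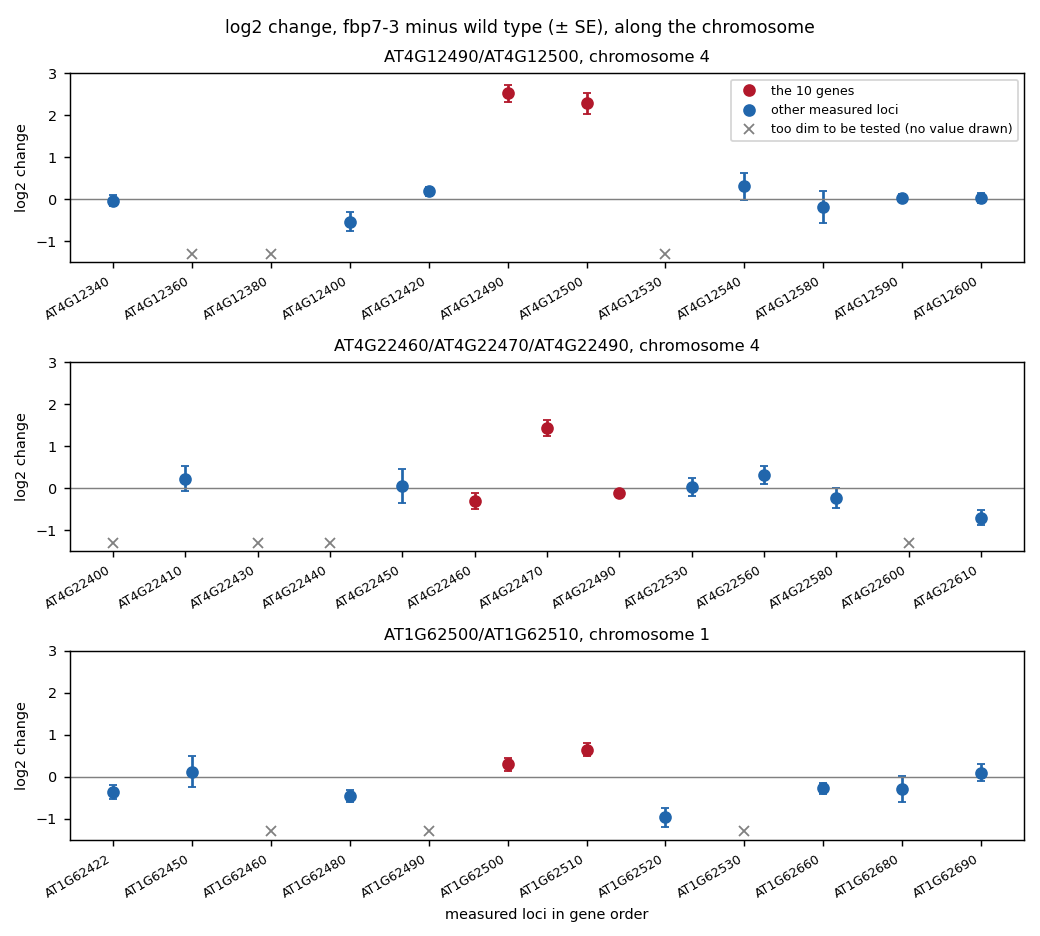
log2 change (*fbp7-3* minus wild type, ± SE) of measured loci in gene order around the 3 rows of neighbouring family genes. AT4G12490, at 2.52, and AT4G12500, at 2.28, stand beside tested loci between −0.53 and 0.31, and AT4G22470, at 1.43, lies between AT4G22460 at −0.31 and AT4G22490 at −0.11.

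Genes of processes in which family members take part were sparsely measured. Of 27 genes of systemic resistance and salicylate signalling 5 were tested, and none passed in limma, with 1 at an unadjusted p under 0.05. Over all tested probe sets 1.06% passed and 11.8% had such a p, so among so few genes a count of 0 shows nothing about the list. *CCR2*, a cinnamoyl-CoA reductase gene, had 68.8 ± 17.6 in the mutant, against 133 ± 46.6 in the wild type (SD, n = 3 each), at −0.79 ± 0.28 (limma adjusted p = 0.262). AT5G48490, a gene of the lipid-transfer group close to *DIR1*, a lipid-transfer gene of systemic resistance, was at −0.06 ± 0.09 (limma adjusted p = 0.86). Of 20 genes for extensins and other proline-rich wall proteins 6 were tested and none passed in limma, with 1 at an unadjusted p under 0.05, and the same limit holds. AT5G06630 was at −0.33 ± 0.15 (limma adjusted p = 0.401) and AT3G28550 at −0.31 ± 0.24 (0.679). Of 25 cuticle and wax genes 1 was measured, and it was too dim to be tested.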

How the data were processed

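Seedlings (about 80 mg per sample) gave the total RNA, of which about 6 µg was labelled for 1 Affymetrix ATH1 array per sample, per the labels' protocols and the series' design text. The deposited values are MAS5 signal intensities on a linear scale, per the submitters' processing notes, which name no version. With the outer 2% at each end trimmed, every array averaged 500.0, so the authors had scaled each array by 1 factor; this assumes alike overall levels.

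Of 22746 probe sets other than controls, the platform annotation paired 13513 with 1 gene, 503 with several genes, and did not list 8730. No coordinates are given, because no build is named for the array.

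The intensities were put on the scale of log2(signal + 16), and the 25% of probe sets with the lowest mean were left out, leaving 17059. Groups came from the sample titles. The fit used limma 3.58.1 (R 4.3.3), with lmFit, eBayes, a trend of variance on intensity, and Benjamini-Hochberg adjustment over all tested probe sets. SEs combine 4 residual with 10.4 prior degrees of freedom and can understate the spread of a single gene. The fit was tested on simulated data with independent normal noise and no filter on dim probe sets. Those data held no difference in RNA quality between groups, so that test does not address the confounding here.

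The 10 genes and the gene lists were chosen with earlier results of these data known. The rule for names took all 10 genes and, from each list and the neighbouring loci, those past the threshold (up to 4 by smallest p) or else the 2 with the smallest p, and the 5 genes closest to the gene with the largest difference. *SKU5*, AT4G12530 and the shared probe sets were added after their values were seen.

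Alternatives were pseudocounts of 1 and 64, no filter or one of 50%, quantile normalization, median centring, variances without the trend or with robust eBayes, array weights, a replicate block, an RNA quality covariate, and leaving out each array in turn. The covariate averaged the log2 ratios of 3′ to 5′ control signals (actin, GAPDH and ubiquitin, 2 series each). It separated the groups, so fits with it rest on differences among arrays within a group and cannot fully part RNA quality from genotype.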

Additional observations from a re-analysis of the deposited data

Results flagged for a closer look

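Of the control probe sets, which lie outside the gene comparison, 3 ratios of 3′ to 5′ signal stood out because each mutant array was above each wild type array. The ratio of GAPDH was 3.13 ± 0.31 in the mutant, against 2.50 ± 0.07 in the wild type, in the first series of controls, and 1.36 ± 0.12 in the mutant, against 1.14 ± 0.11 in the wild type, in the second. The ubiquitin ratio of the first series was 3.79 ± 0.29 in the mutant, against 3.40 ± 0.12 in the wild type (SD, n = 3 each). For each, the exact permutation test (two-sided) gave p = 0.1, which is the least that 3 against 3 can give. The groups overlapped for the other 3 of the 6 ratios.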

How the results depend on the processing

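The count of changed probe sets was 180. It was 75 without the filter on dim probe sets, 6 without the intensity trend and 24 with the RNA quality index as a covariate, and ran from 74 (without mutant replicate 3) to 246 (without mutant replicate 1) with 1 array left out. The count of other eight-cysteine genes, 2, was 0 without the filter, with quantile normalization, without the intensity trend and with the RNA quality index, 1 with median centring, and 0 to 4 with 1 array left out. The count of neighbouring loci, 0, was 0 to 1 with 1 array left out, the 1 being AT1G62480 without wild type replicate 3, and 0 under the other alternatives. The counts for systemic resistance and wall genes stayed at 0 wherever genes were tested (limma). No pairing by replicate number was seen: deviations of same-numbered arrays from their group means correlated at −0.005, −0.02 and −0.03. Such correlations cannot show how the samples were grown or processed. With the replicate block the count over all probe sets was 211 and that of other eight-cysteine genes 1. The planned list of family genes from RefSeq descriptions was not run, since the annotation used holds no descriptions, and the cuticle list, with no gene bright enough to be tested, was given no alternatives. AT1G12100, whose signals lay near the lower quartile of the arrays, ran from 0.13 to 0.61 over the alternatives.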
